A study of Mus musculus with 2 samples.

Results

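POU3F1 occupancy in the embryonic mouse retina was examined at 9 POU genes outside the Brn3 group: the class III genes Pou3f1, Pou3f2, Pou3f3 and Pou3f4, the class II genes Pou2f1 and Pou2f2, and Pou6f1, Pou1f1 and Pou5f1. They were chosen by name, as 9 of the POU family's 15 genes on the lists used here, and their peaks were the rows under these names in a deposited gene table of 2323 genes. Of the 9 genes, 6 had a row, with 12 peaks out of 2652 in the whole peak list, and Pou3f3, Pou3f4 and Pou5f1 had none. The study profiled retina of wild-type (WT) CD1 mice at embryonic day 14 by CUT&RUN, in which an antibody directs a nuclease to a chromatin protein and the released DNA is sequenced, with 1 library for POU3F1 and 1 for rabbit IgG. Peaks were called once and there was no replicate, so no difference between genes or between antibodies was tested.

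POU factors bind DNA with 2 joined domains, a POU-specific domain and a POU homeodomain, and many of them recognise the octamer ATGCAAAT or variants of it. Class III factors act mainly in the developing nervous system, where several are present in neural progenitors and young neurons. Pou3f1, also called Oct6 or Scip, is best known for its part in Schwann cell myelination, and the title of the series links it to retinal ganglion cells whose axons cross the midline. Pou2f1 and Pou2f2 encode Oct1, which is present in most cells, and Oct2, known from B cells and neurons.

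Promoters lying under a peak are shown first, since their sequence was at hand. RefSeq promoter windows (250 bases before to 50 after a start site, build GRCm38.p6) were at hand for 8 of the 9 genes, 12 windows in all, and none for Pou3f1. A peak overlapped 3 of these windows, 1 at Pou6f1 and 2 at Pou2f1, so that 2 of 8 genes had a promoter under a peak, where 0.932% of 17492 protein-coding genes with a window did. The 250 bases before each of these 3 start sites follow, 5′ to 3′ on the strand of the gene. Capitals mark matches to the motifs searched. Those at Pou6f1 are to ATGCAAA and CTCATGA, searches added after the sequence had been seen, and the Pou2f1 sequences hold none.
Pou6f1, chr15:100599985-100600234, minus strand: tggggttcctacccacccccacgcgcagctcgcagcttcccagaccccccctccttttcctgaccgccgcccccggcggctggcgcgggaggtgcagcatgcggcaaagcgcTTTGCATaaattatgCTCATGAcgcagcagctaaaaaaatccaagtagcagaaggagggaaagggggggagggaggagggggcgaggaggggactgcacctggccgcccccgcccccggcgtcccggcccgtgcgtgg
Pou2f1, first start site, chr1:166002635-166002884, minus strand: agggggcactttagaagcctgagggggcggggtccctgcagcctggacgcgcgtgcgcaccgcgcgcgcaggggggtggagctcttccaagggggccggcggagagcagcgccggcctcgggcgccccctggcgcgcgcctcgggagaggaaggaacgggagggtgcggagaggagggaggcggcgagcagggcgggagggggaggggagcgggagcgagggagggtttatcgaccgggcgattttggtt
Pou2f1, inner start site, chr1:165934949-165935198, minus strand: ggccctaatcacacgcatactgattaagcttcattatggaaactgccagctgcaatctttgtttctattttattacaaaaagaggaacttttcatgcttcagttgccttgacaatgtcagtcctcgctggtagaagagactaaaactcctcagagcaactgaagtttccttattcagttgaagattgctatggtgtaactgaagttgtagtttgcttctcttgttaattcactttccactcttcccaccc

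Pou6f1 encodes a class VI POU factor of the brain and other tissues. Its stronger peak lay over its start site, at chromosome 15, 100599432 to 100600357 (mm10), 90 bp downstream of the transcription start site (TSS) by its midpoint. The fold enrichment at the peak's summit over the local background, as the authors deposited it, was 14.2. The summit lay 19 bases upstream of the RefSeq start site, inside the window printed above. It rested on a summit pileup of 35 fragments, a number recovered from the deposited values, against a background of 1.54. In that window the octamer's first 7 bases, ATGCAAA, stood on the opposite strand at 138 to 132 bases before the start, read as TTTGCAT. The heptamer CTCATGA, a motif that accompanies octamers in immunoglobulin promoters, followed after 8 bases, at 123 to 117 before the start. The 13 letters gcataaattatgc, which join the matches and overlap both, read the same on either strand apart from their middle base. This stretch was picked out around the matches, and how often other windows hold one like it was not counted. The summit was 116 bases downstream of the centre of the 7-base match.

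Both the 7-base and the heptamer search were added after the sequence had been seen, so they describe this promoter and are no test of it. The motifs chosen earlier were ATGCAAAT, ATGCNAAT, CATNNTAAT and the form of the last with 3 open bases, searched on both strands, and none of them occurred in the 3 windows under a peak. Every ATGCAAAT is also an ATGCNAAT and holds ATGCAAA. The full octamer stood in 1.74% of all 32851 promoter windows and in 21.1% of the 223 windows under any POU3F1 peak (47 windows, 95% exact binomial interval 15.9 to 27.0%). Without histone genes, some of whose promoters are known for octamers, the shares were 1.69% of all windows and 18.6% under a peak. The 95% exact binomial interval of the latter was 13.3 to 24.9%. ATGCNAAT stood in 3.15% of all windows and in 29.1% of those under a peak. CATNNTAAT was nearly level, in 2.47% of all windows and 3.14% of those under a peak (95% exact binomial interval 1.27 to 6.36%), and its form with 3 open bases stood in 2.87% and 7.17%. The 7-base form stood in 4.63% of all windows and in 24.7% of those under a peak, and CTCATGA in 2.67% and 6.28%. Windows of neighbouring start sites overlap, so these shares count some bases more than once. The intervals treat the windows as independent and are likely too narrow for that reason. Of the 9 member windows without a peak, CATNNTAAT matched 1 of Pou1f1 and the Pou2f1 window at 165953071, and CTCATGA matched 1 of Pou1f1 and that of Pou2f2.

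**Figure D1:**
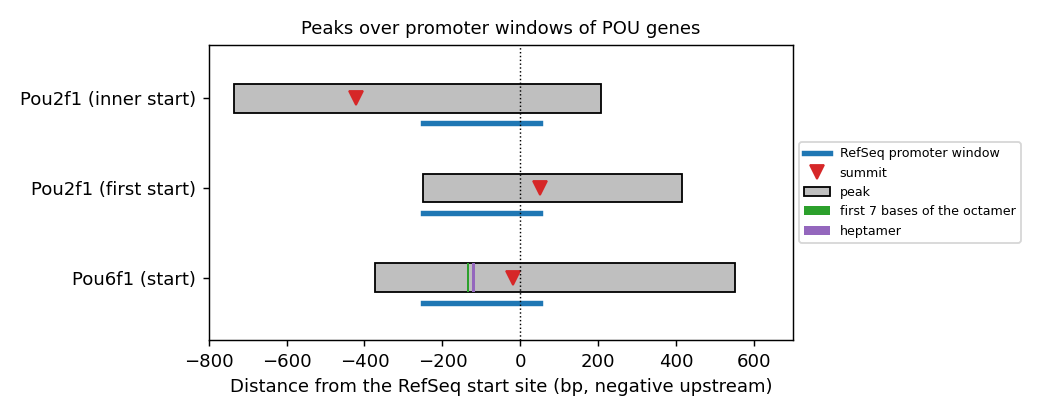
Peaks over the 3 promoter windows of Pou2f1 and Pou6f1, as distance in bp from the RefSeq start site (negative is upstream). Grey bars are peaks, red triangles summits, blue lines the 300-base windows, and the green and purple marks the 7-base octamer match and the heptamer of Pou6f1. The summit lies 19 bases upstream of the start at Pou6f1, 50 downstream at the first start of Pou2f1 and 422 upstream at its inner start.

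Pou2f1, the gene of Oct1, had the most peaks of the 9 genes, with 5 at -1534, +127, +1448, +35839 and +67466 bp from its TSS (minus is upstream). Of all protein-coding genes, 0.699% had 5 or more. Of the peaks, 4 overlapped the body of the gene, which spans 137600 bp on chromosome 1, and the one at -1534 overlapped no annotated gene. The 2 peaks over promoter windows held the most fragments of all 12: 38 at the first start site and 40 at the inner one.

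At the first start site of Pou2f1, the peak (166002218 to 166002884) had a fold of 8.82 over a background of 3.42, the highest background of the 12. At the inner start site, 67466 bp downstream, the peak (165934741 to 165935684) was 944 bp long, the longest of the 12, and had a fold of 11.5 over a background of 2.57. Its summit, 422 bases upstream of that start, lay outside the printed window. These promoters differ in composition, with 69.7% G and C and 32 CpG dinucleotides in the first window against 38.0% and 2 in the inner one. The medians over all windows under a peak were 55.3% and 17. A RefSeq start site between them, at 165953071, had no peak over its window.

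The peak of highest fold among the 12 lay between these start sites, at 165966583 to 165967095, with 14.7-fold and 33 fragments. It took rank 227 of 2652 in the peak list. The peaks on either side of the first start were weaker, 7.78-fold with 15 fragments upstream (166004085 to 166004340) and 7.33-fold with 14 fragments downstream (166000998 to 166001462). Of the 5 peaks, the 3 at +1448, +35839 and +67466, were also assigned to Cd247, the T cell receptor zeta chain gene, whose TSS was 146531 to 212549 bp away.

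The other class II gene, Pou2f2, had 1 peak, 47135 bp upstream of its TSS at chromosome 7, 25179514 to 25179711. It had 6.47-fold, 25 fragments and a background of 3.02, and at 198 bp it was the shortest of the 12. RefSeq's Pou2f2 spans 25087350 to 25180797, so this upstream peak still lay inside the annotated gene, which begins farther upstream than the TSS used for the distance. By the deposited distances the peak was nearer to the TSS of Dedd2, a death-effector-domain gene, at 41003 bp. Counting only the nearest TSS by these distances, Pou2f2 therefore had no peak. The annotated gene, on the minus strand, begins at 25180797. The peak lay much closer to that start than to the TSS used for Pou2f2 or to that of Dedd2.

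**Figure D2:**
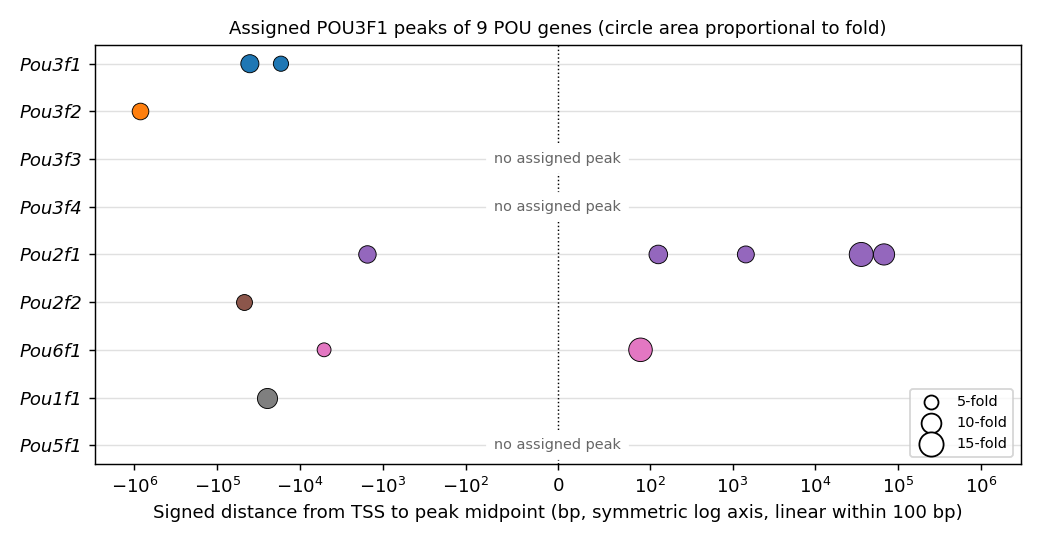
Deposited signed distance from the TSS to the midpoint of each assigned peak (bp, symmetric log axis) for the 9 genes, with circle area proportional to fold. Pou2f1 and Pou6f1 have peaks within 5 kb of the TSS, the single peak of Pou3f2 lies 854041 bp upstream, and 3 genes have none.

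Pou3f1, the gene of the profiled factor, had 2 peaks, both upstream and neither at its promoter. The farther one, 40327 bp upstream (chromosome 4, 124616247 to 124616713), held 16 fragments at its summit and had 8.35-fold. The nearer one, 16996 bp upstream (124639693 to 124639929), held 11 fragments and had 5.89-fold, below the median of 6.37 over all peaks. The RefSeq start of Pou3f1 lies 840 bp downstream of the TSS that these distances imply, which makes them 41167 and 17836 bp. Both peaks lay inside Gm2164, a long non-coding RNA gene that spans 124522925 to 124657487 and ends shortly before Pou3f1 begins at 124657646.

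Farther out, 5 more peaks lay within 500 kb of the Pou3f1 TSS and were assigned to other genes. Upstream lay 4, at 150330, 350708, 401708 and 456308 bp. Among the pairs that could be placed, the gene table gave them to Rragc only, a GTPase gene of amino acid sensing. The 2 nearest of them lay closer to Pou3f1 than to Rragc, whose TSS was 589030 and 388653 bp from them. All 4 lie within 1000000 bp, which is only the upper limit of a domain's extension. Why the table does not list them for Pou3f1 is not given in the sources used here, so its count of 2 peaks holds for this assignment. The strongest peak of this neighbourhood was among them: at 124254750 to 124255448, 401708 bp upstream, it had 13.5-fold and 54 fragments. The downstream side was emptier, with 1 peak at 284001 bp (7.74-fold), assigned to the cell division gene Cdca8. No peak midpoint lay between 16996 bp upstream and 284001 bp downstream of the TSS.

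The 3 other class III genes had little or no assigned occupancy. Pou3f2, the gene of Brn2, had 1 peak of 7.08-fold and 17 fragments, 854041 bp upstream (chromosome 4, 23342128 to 23342686), where no gene is annotated. A nearer peak, 186716 bp downstream of its TSS with 8.66-fold, was assigned to Faxc and Fbxl4 instead. Pou3f3, the gene of Brn1, had its nearest peak 1905693 bp away, and Pou3f4, on chromosome X, had its nearest 2111432 bp away. Chromatin came from whole retina, so a low fold at a gene cannot tell occupancy in few cells from weak occupancy in many.

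**Figure D3:**
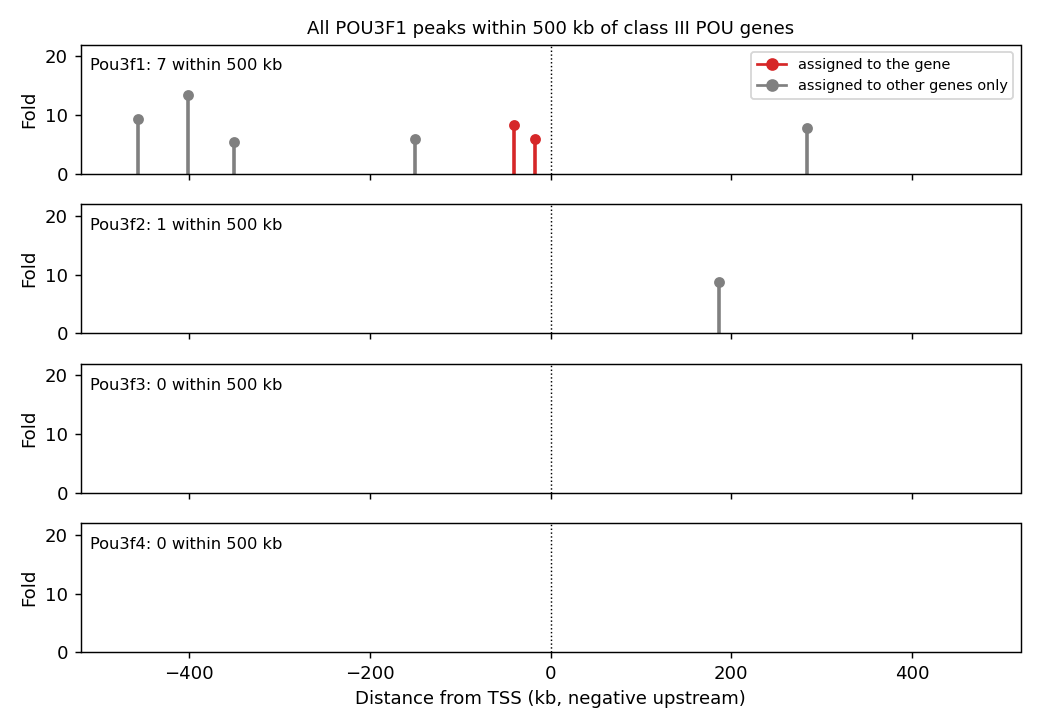
All POU3F1 peaks within 500 kb of the TSS of the 4 class III genes, by distance (kb, negative is upstream) and fold. Red stems are peaks assigned to the gene and grey stems peaks assigned to other genes only; Pou3f1 has 7, Pou3f2 has 1, and Pou3f3 and Pou3f4 have 0.

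Pou1f1, the pituitary factor gene, had 1 peak of 10.3-fold and 20 fragments, 25063 bp upstream at chromosome 16, 65495264 to 65495633, where no gene is annotated. It was also assigned to the serotonin receptor gene Htr1f, at 389664 bp. Pou5f1, the pluripotency gene Oct4, had no assigned peak. The nearest peak to it, 340646 bp upstream, was far stronger than those of the 9 genes, with 63.9-fold and 199 fragments, and lay 490 bp upstream of the TSS of Prrc2a, to which it was assigned. The second peak of Pou6f1, 5121 bp upstream (100604928 to 100605283), was the weakest of the 12, with 4.91-fold and 9 fragments. It was also assigned to Dazap2, 10523 bp upstream of that gene's TSS.

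Of the 9 genes, 6 (66.7%) had an assigned peak, where 10.2% of 21887 protein-coding genes did. Within 50 kb of the TSS, 5 of 9 had one, against 3.67% of all genes, and only Pou3f2 dropped out. With each peak counted for its nearest assigned TSS only, 5 of 9 had one, against 6.71%. At q-values under 0.01 and under 0.001 all 6 genes kept a peak, against 9.77% and 9.39% of all genes. Within 5 kb, Pou2f1 and Pou6f1 had one, 2 of 9 against 1.4%. The 5 kb count uses the deposited distances, which for Pou2f2 start from a TSS inside the annotated gene. Its peak near the annotated start is therefore not in the 5 kb count, though it is in the 50 kb count. With peaks of at least 10-fold, 3 of 9 had one (Pou2f1, Pou6f1 and Pou1f1), against 2.74%. Counting any peak whatever its assignment, 5 of 9 had one within 50 kb, against 6.23% of genes with a listed start, and 7 of 9 within 500 kb, against 42%. The sides of this last comparison differ in measure. All genes were measured from the nearest of their listed starts, the 9 from the TSS used above, and Pou3f1 has no listed start. These shares are not adjusted for the length of the loci.

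By deposited distance, most of the 12 peaks lay within 50 kb of a start site, while most pairs of the whole table did not. Within 50 kb were 10 of 12 (83.3%), where 23.8% of all 4427 peak and gene pairs were, a difference that was not tested, and within 5 kb 4 of 12 (33.3%), where 8.92% were. Of the 12, 5 came from Pou2f1 alone, 3 of them within 5 kb, so these are not 12 independent loci. Upstream lay 7 of the peaks and downstream 5. Of the 12, 6 were assigned to the POU gene alone among the pairs that could be placed.

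In strength, the 12 peaks lay within the range of the list. Their folds ran from 4.91 to 14.7 with a median of 8.06, against a median of 6.37 and quartiles of 4.91 and 8.84 over all peaks. At least 10-fold was reached by 4 of 12 (33.3%), as did 18.7% of all peaks. Their lengths ran from 198 to 944 bp with a median of 466 bp, against 352 bp in the whole list, and their pileups from 9 to 40 with a median of 18.5, against 19 in the whole list. The largest q-value among them was 0.000558, at the weaker Pou6f1 peak.

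Few fragments stand behind most of these values, which limits how they can be ordered. In 4 of the 12 (both of Pou3f1, the weaker of Pou6f1 and that of Pou1f1) the background was 1.04, the lowest value in the list, which 30.3% of recovered peaks shared. At that background 1 fragment more or less moves the fold by 0.491. An exact Poisson interval of 95% on the pileup, with the background held fixed, put the strongest Pou2f1 peak at 10.3 to 20.5-fold and the Pou6f1 promoter peak at 9.99 to 19.5-fold. The same interval was 4.98 to 13.3-fold for the farther Pou3f1 peak and 3.19 to 10.2-fold for the nearer. Neighbours in the order of folds had overlapping intervals, while the weaker Pou6f1 peak (2.51 to 8.88-fold) lay below those of the strongest Pou2f1 peak and the Pou6f1 promoter peak. These intervals cover counting error at most, and may be too narrow even for that, since reads amplified by PCR are not independent molecules. They leave out error in the background and variation between libraries.

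**Figure D4:**
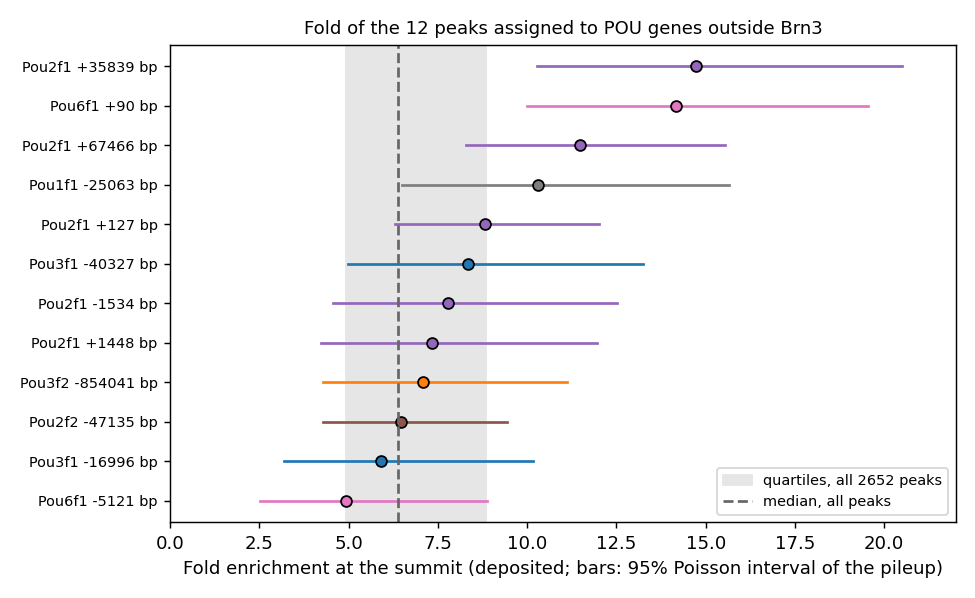
Deposited fold at the summit of each of the 12 peaks, labelled by gene and signed distance from the TSS, with bars for the 95% Poisson interval of the recovered pileup. The grey band and dashed line are the quartiles (4.91 and 8.84) and median (6.37) of all 2652 peaks. Peaks of Pou2f1 at +35839 and Pou6f1 at +90 are highest and the Pou6f1 peak at -5121 is lowest.

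Of the 6 remaining POU genes, 3 had an assigned peak. The Brn3 genes Pou4f1 and Pou4f2, factors of retinal ganglion cells, had 4 and 2, with strongest folds of 19.7 and 10.9, and Pou5f2 had 1 (5.22-fold, 131950 bp upstream). Pou4f3 and Pou2f3 were among those without one. Among 20 genes of known partners and coactivators of POU factors, 8 had a peak, among them Sox1, Sox2, Sox4, Sox9, Sox11, Pax6 and Neurog2. The strongest were at the glial and progenitor factor gene Sox9 (24.2-fold, 29111 bp downstream), the proneural gene Neurog2 (21.6-fold, 117189 bp downstream) and Sox4 (14.3-fold, 317883 bp upstream). Within 5 kb of the TSS, 3 of the 20 genes had a peak: Sox2, Pax6 and Neurog2. The octamer coactivator gene Pou2af1, the Oct1 cofactor gene Hcfc1 and the Pou1f1 partner genes Lhx3 and Pitx1 were among the 12 without one.

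Fewer of the genes known as targets of POU factors in other tissues had a peak, a difference that was not tested. Of 16, 4 had an assigned peak: Mitf, the pigment cell factor gene (19.0-fold, 311549 bp downstream), the Notch ligand gene Dll1, the prolactin gene Prl (7.37-fold, 188195 bp upstream) and Crh (3.91-fold, 153527 bp upstream). Dll1 alone had one within 5 kb, 56 bp upstream of its TSS, with 12.1-fold and 61 fragments. Egr2, a gene of Schwann cell myelination downstream of Pou3f1, had none, and neither did the neural progenitor genes Nes and Fabp7. All these lists are small, and the share of all protein-coding genes with an assigned peak was 10.2%.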

How the data were processed

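The peak list was made by the authors from the POU3F1 library. The submitters' processing notes give the build mm10 and the tools Bowtie2, MACS2 and deepTools with no version. How the IgG library was used is not given in the sources used here, and no value of it was analysed here. The authors deposited for each peak a fold enrichment (a ratio), a p-value and a q-value (both as −log10), and a score. The deposited distances to the TSS were made with GREAT 4.0.4, per the file headers, with domains of 5000 bp upstream and 1000 bp downstream extended up to 1000000 bp and curated domains included.

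Each distance was placed on a peak by seeking, for each gene, a strand and a TSS from which every distance meets a peak midpoint within 1 bp, with the TSS no more than 5000 bp from a RefSeq start (100000 bp with several distances). This placed 4230 of 4427 pairs, among them all 12 of the 9 genes. Of 2323 gene names, 2270 matched RefSeq (GRCm38.p6, the assembly of mm10), and the background share counts protein-coding genes of the chromosomes. Summit pileups were recovered as the whole number that gives both the deposited fold and p-value (within 0.001 on the −log10 scale), taking the fold as (pileup + 1) / (background + 1). This held for 2589 peaks. On 1000 peaks simulated with the same formula it found 100% of pileups, which checks the calculation but not whether the formula holds for the deposited values. Library depth is unknown. Promoter motifs were searched with Python 3.11.15. RefSeq gave no exons here, and peak sequences outside promoter windows and protein sequences were not used.

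Every member and every peak of a member is named, with the other gene each peak was placed on. Of other lists, the genes with a peak are named, apart from some items not reported here, and a selection of those without one was named after their values were seen. No list was tested. The members and lists were chosen with earlier results of these data known. No expression was measured, so the labelled tissue could not be checked against markers, and the number of embryos is not given in the sources used here. Alternatives were distance limits, nearest-TSS assignment, stricter q-values, a fold limit, the placement tolerance and the promoter window.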

Additional observations from a re-analysis of the deposited data

How the results depend on the processing

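Of the 9 genes, 6 had an assigned peak. Limiting deposited distances to 5 kb left 2 genes and 4 peaks, and a limit of 10-fold left 3 genes and 4 peaks. A limit of 50 kb, assignment to the nearest TSS only, q-values under 0.01 and under 0.001, and 2 alternatives added after seeing the data (any peak within 50 kb or 500 kb) moved the number of genes by less than 1.5 times, to between 5 and 7. The share of all protein-coding genes with an assigned peak, 10.2%, became 3.67% within 50 kb, 1.4% within 5 kb, 6.71% with the nearest TSS only, 9.77% and 9.39% at q-values under 0.01 and 0.001, and 2.74% at 10-fold or more. For the nearest TSS and for the q-value and fold limits, only pairs placed on a peak could be counted, which lowers the share by itself. The median fold of the 12 peaks was 8.06, and 8.35 with the nearest TSS only. All 12 were placed at a tolerance of 5 bp too. No replicate could be left out and no paired analysis was possible because each antibody had 1 library. Summit pileups of 9 to 40 fragments limit the order of single peaks.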
